A study of Arabidopsis thaliana with 4 samples.

Results

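The comparison was between plants labelled gpa1 and wild-type plants of the Wassilewskija accession (ws-2, called WS here) after treatment with the hormone abscisic acid (ABA). It used 2 of the 4 arrays of the study, 1 array for each genotype, with no replicate. The plants of both groups were whole plants aged 10 days that had received 100 µM ABA for 3 h. They had been grown at 21 °C, under 16 h of light and 8 h of dark, on Murashige and Skoog agar, and 10 plants were pooled for each RNA sample. The gpa1 line is described in the labels as ws-2 with a T-DNA insertion, and the WS plants came from another seed stock, so genotype and stock cannot be told apart. The other 2 arrays held the same genotypes with no ABA treatment recorded and are called the control pair. The series title sets the question as how the wild type and the gpa1 mutant respond to ABA.

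ABA is the plant hormone of drought, salt stress and seed dormancy. It is perceived by soluble receptors that block a group of protein phosphatases, which frees protein kinases to act on ion channels and on transcription factors, and the factors switch on genes for protective proteins such as dehydrins. GPA1 is the Arabidopsis alpha subunit of heterotrimeric G proteins, membrane switches in which it works with beta and gamma subunits. Loss of GPA1 is known to alter the ABA responses of guard cells and seeds.

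The values are linear intensities of probe sets on the Affymetrix ATH1 array, in which a group of short probes reads a transcript. Intensities below 19.2, the 30th percentile over all 4 arrays, were raised to that floor, and the difference gpa1 minus WS was taken on the log2 scale. At the floor only an upper limit of the signal is known, and folds against such values are given as "at least". A probe set was counted as different where its intensities were at least 2-fold apart. With 1 array for each group no difference has an error or a p-value, and every value below describes these arrays and not the genotypes in general. Of 22746 probe sets, 13513 were paired with a single gene by the annotation used here, and the genes named below come from these.

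The array checks were not level between the genotypes. The geometric mean of the 9 spike-in probe sets was 365.8 on the gpa1 ABA array and 217.5 on the WS ABA array, and 252.6 and 383.1 on the gpa1 and WS control arrays. The probe set of 25S ribosomal RNA gave 1800.2, 958.7, 1549.8 and 2235.9 in the same order. Both readings were therefore higher in gpa1 after ABA, by 0.75 and 0.91 on the log2 scale, and lower in gpa1 without it, by -0.60 and -0.53. The ratio of the 3′ to the 5′ probe sets of actin was 3.40 in gpa1 and 4.26 in WS after ABA, and 3.62 and 3.27 in the control pair. Median intensities were 42.8 and 43.5 on the ABA arrays. At the bright end the arrays were not level under the deposited scaling. Of the 185 probe sets with a mean intensity over 2000 on the ABA arrays, 166 were brighter in gpa1 after ABA and 30 without it, with median differences of 0.26 and -0.20. Quantile normalization, which gives all arrays the same distribution, brought these medians to 0.01 in each pair, so small differences of very bright genes depend on the scaling. Green-tissue transcripts were bright on both ABA arrays, with the Rubisco activase RCA at 5173.2 in gpa1 and 4082.4 in WS. The root-expressed beta-glucosidase PYK10 read 2403.7 and 2227.4, so leaf and root transcripts were both present, as the label of whole plants says. The 7 leaf markers had differences from -0.54 to 0.34 after ABA, with RCA the highest and a median of 0. The 3 root markers, PYK10, EXPA7 and EXPA18, had differences from 0.11 to 0.73. The root median was 0.43 after ABA and -0.74 without it, so these markers were not level. In a pool of whole plants, a smaller share of a tissue and less RNA per cell cannot be told apart.

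The gene that gives the line its name could not be checked. No probe set was assigned to GPA1 (AT2G26300) by the annotation used here, so GPA1 was not analysed here. The labels place the insertion in AT3G26300, the cytochrome P450 gene CYP71B34 in the annotation. CYP71B34 had an intensity of 105.4 in gpa1 and 121.6 in WS after ABA, and of 116.7 and 105.4 in the control pair. Its differences were -0.21 and 0.15, so its signal was much the same on all 4 arrays. The locus in the labels, AT3G26300, is thus not that of GPA1, AT2G26300, and the mismatch could not be resolved here. The sources used here do not give where the probes lie relative to the insertion.

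After ABA, 111 probe sets were at least 2-fold higher in gpa1 than in WS, 0.488% of those compared, and 177 were at least 2-fold lower, 0.778%. Among probe sets with 1 gene, 65 were higher (0.481%) and 93 were lower (0.688%), 1.17% in all. These shares are the background for every list count below, and at them a short list can hold no called member. Of the 111 higher probe sets, 85 lay above the floor on both ABA arrays, as did 129 of the 177 lower ones. The differences reached 3-fold for 13 higher and 39 lower probe sets, and 4-fold for 6 and 18. The correlation of log2 intensities between the ABA arrays was 0.981 across all probe sets, where probe sets are not independent replicates. The robust standard deviation of the difference, taken over the 14928 probe sets above the floor on both ABA arrays, was 0.302.

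**Figure D1:**
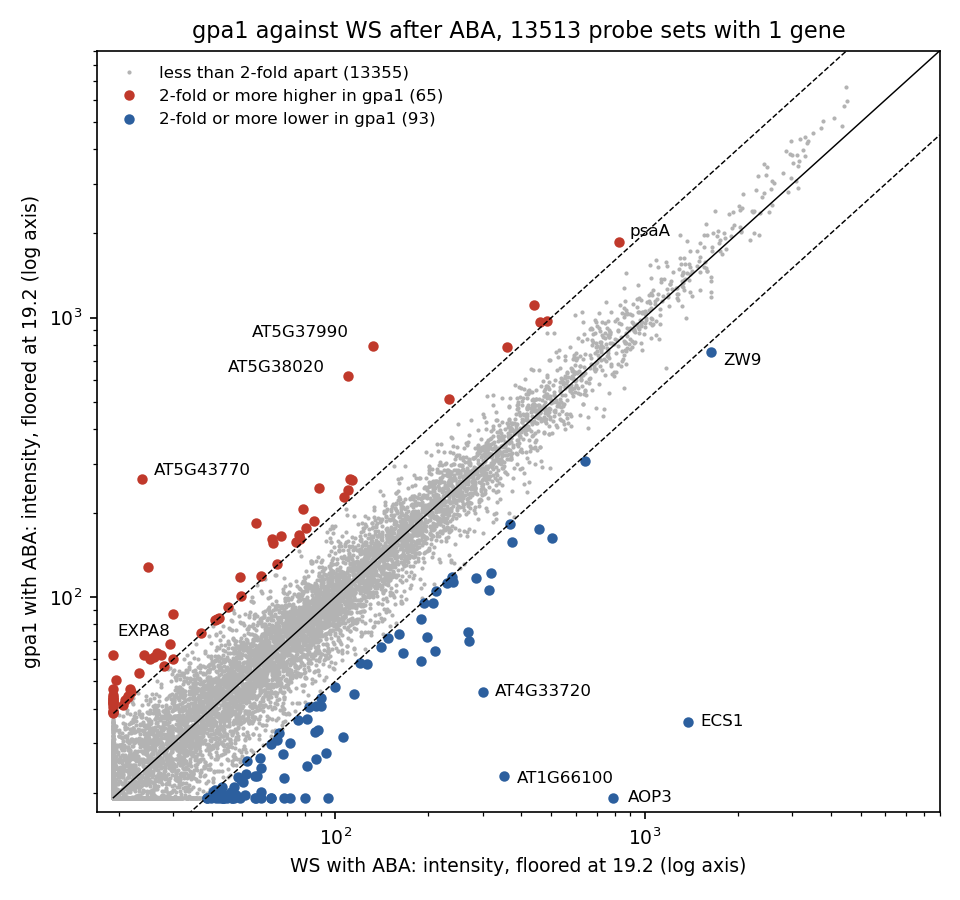
Intensity on the gpa1 ABA array (vertical) against the WS ABA array (horizontal), both on log axes and raised to the floor of 19.2, for the 13513 probe sets with 1 gene. The solid line marks equal intensity and the dashed lines 2-fold differences; AOP3, ECS1 and AT1G66100 lie far to the right at low gpa1 intensity, and AT5G43770, AT5G37990 and AT5G38020 lie above the upper dashed line.

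The largest differences were lower in gpa1. AOP3 forms hydroxyalkyl glucosinolates, sulfur compounds that deter herbivores, by modifying their side chain. Its intensity was 5.1 in gpa1 and 791.0 in WS after ABA, and 3.4 and 584.7 in the control pair. Both gpa1 arrays were below the floor and both WS arrays were bright, so AOP3 was at least 41.2-fold lower in gpa1 after ABA and at least 30.5-fold lower without it. ECS1, a cell wall protein, read 35.7 in gpa1 and 1381.7 in WS after ABA, and 42.3 and 1402.3 in the control pair. It was 38.7-fold lower in gpa1 after ABA and 33.2-fold lower without it, and ABA left its level in WS within a few percent.

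Loci without a symbol in the annotation showed the same order of the arrays. AT1G66100 read 22.9 in gpa1 and 352.6 in WS after ABA, and 11.3 and 539.4 in the control pair, which is 15.4-fold lower after ABA and at least 28.1-fold lower without it. AT4G33720 read 46.0 and 300.2 after ABA against 82.7 and 325.9 in the control pair. Its difference was -2.71 after ABA and -1.98 without it.

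BCAT4, the aminotransferase that starts methionine chain elongation for glucosinolates, read 122.0 in gpa1 and 318.6 in WS after ABA and 269.6 and 573.1 in the control pair. It was 2.61-fold lower after ABA and 2.13-fold lower without it. The 7 probe sets of the glucosinolate list had 2 members at least 2-fold lower and none higher, beside a background of 0.688% lower and 0.481% higher. The list was chosen with earlier results of these data known, so nothing is read from that count. Its median difference was -0.35 after ABA and -0.31 without it. The median over all probe sets with 1 gene was 0 in both pairs. AOP1, a relative of AOP3, had a difference of -0.55, and UGT74B1, which adds the glucose in glucosinolate synthesis, of -0.35. The transporters GTR1 and GTR2, which load glucosinolates into the phloem, had -0.21 and 0.03. CYP79A2 was below the floor on all 4 arrays.

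The members of the list of antimicrobial proteins, which includes ECS1, differed in both directions. The list was matched on gene names, so it can miss genes of this kind, and it does not hold AT1G66100 or AT4G33720. Of the 18 probe sets of defensins and pathogenesis-related proteins, 1 was at least 2-fold higher and 2, ECS1 and THI2.2, were lower. The background was 0.481% higher and 0.688% lower. Only 9 of the 18 lay above the floor on an ABA array. The list's median was 0, and 0.40 with dim probe sets filtered out. THI2.2, a thionin, read 15.2 in gpa1 and 68.6 in WS after ABA, but 90.5 and 88.2 in the control pair. It was thus at least 3.57-fold lower in gpa1 after ABA, where the gpa1 array alone was below the floor, with a difference of 0.04 without ABA. The defensin PDF2.1 read 162.0 in gpa1 and 77.1 in WS after ABA and 39.1 and 4.2 in the control pair, a difference of 1.07 after ABA and of at least 1.03 without it. PDF1.2b, a jasmonate-responsive defensin, had a difference of 0.42 after ABA. The defensin-like genes LCR68 and LCR69 had 0.59 and 0.40, and the chitinase gene ChiC 0.40.

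OSM34 encodes an osmotin-like protein of the pathogenesis-related family, was not in that list, and was named after its value was seen. It read 175.1 in gpa1 and 456.8 in WS after ABA and 276.9 and 267.1 in the control pair. The genotypes were level without ABA, and after ABA the gene was 2.61-fold lower in gpa1, with the WS ABA array above both controls and the gpa1 ABA array below both. AT3G28220 read 69.9 and 270.0 after ABA and 33.7 and 18.3 in the control pair. It was 3.86-fold lower in gpa1 after ABA, while without ABA the gpa1 array was the brighter one. AT4G19530, also named after its value was seen, read 45.0 and 115.5 after ABA and 102.0 and 162.7 in the control pair.

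**Figure D2:**
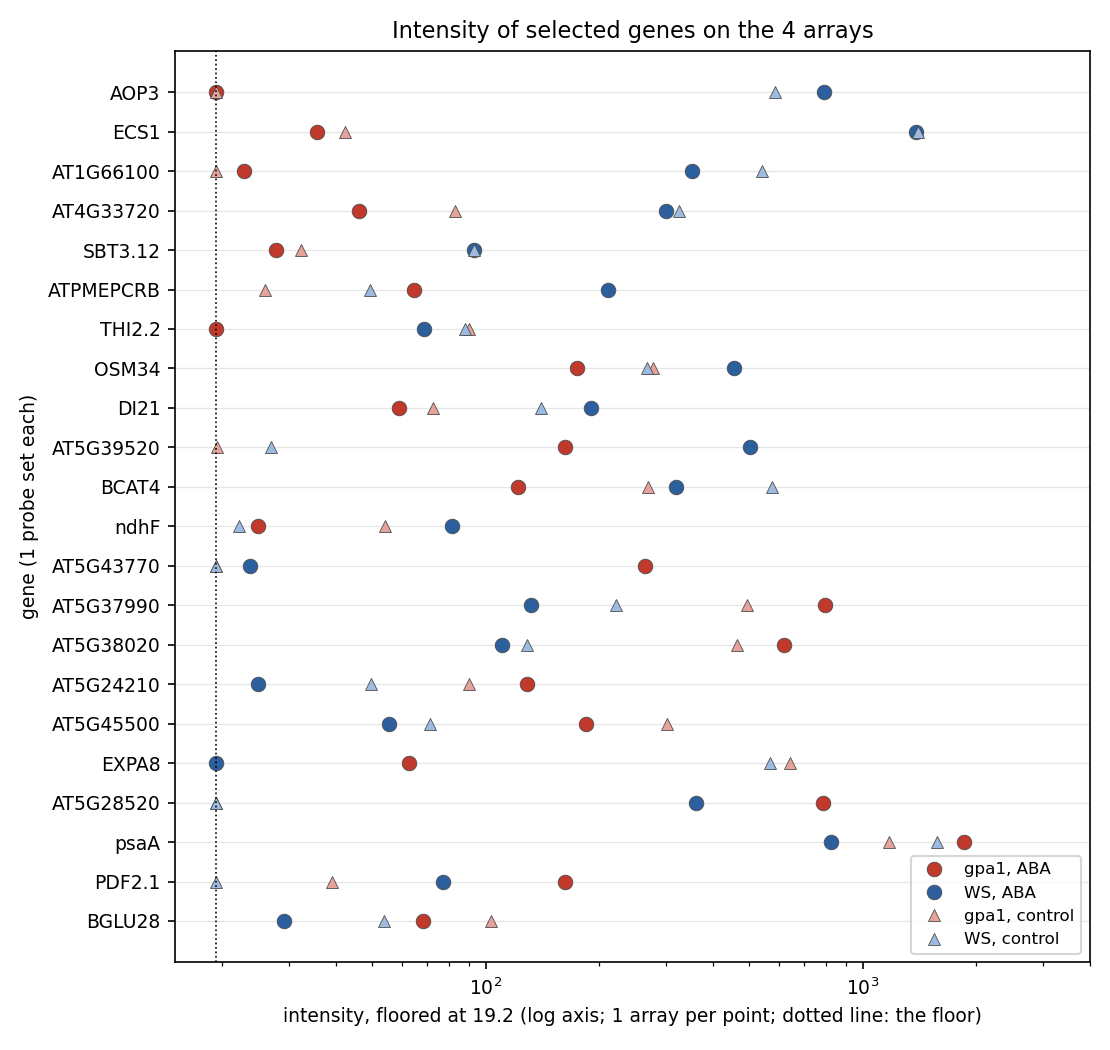
Intensity of 22 genes on the 4 arrays, on a log axis with values raised to the floor of 19.2 (dotted line); circles are ABA arrays and triangles control arrays, 1 array for each point and no error bars. For AOP3, ECS1, AT1G66100 and AT4G33720 both gpa1 arrays lie to the left of both WS arrays, whereas for THI2.2 and OSM34 the control arrays nearly coincide and the ABA arrays are apart.

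Protective proteins, the best known products of ABA signalling, had a median difference near 0. Of the 13 probe sets of late embryogenesis abundant (LEA), dehydrin and cold-regulated (COR) proteins, none was at least 2-fold higher in gpa1 after ABA and 1 was lower. The background was 0.481% higher and 0.688% lower, so nothing is read from that count. Above the floor on an ABA array were 11 of the 13. The list's median difference was 0.08. The dehydrin COR47 read 5941.4 in gpa1 and 4507.9 in WS, and the LEA protein LEA4-5 read 1979.8 and 1558.0. LTI30, another dehydrin, read 2916.2 and 3139.3, and COR15A, which protects chloroplast membranes during freezing, read 629.4 and 589.9. These 4 genes had differences between -0.11 and 0.40, and the 0.40 of COR47 was 0.08 with quantile normalization. LEA18 had the highest value of the list, with 194.6 in gpa1 and 125.2 in WS, a difference of 0.64.

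The member at least 2-fold lower was DI21, a drought-induced gene of the LEA group. It read 59.0 in gpa1 and 189.6 in WS after ABA and 72.4 and 140.1 in the control pair. DI21 was 3.21-fold lower in gpa1 after ABA and 1.94-fold lower without it, and both WS arrays were brighter than both gpa1 arrays.

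Few genes of the ABA pathway itself could be read. EEL, a bZIP factor that acts in seed ABA responses, was the single named member of the core signalling list. It read 14.2 in gpa1 and 30.2 in WS after ABA, below the floor in gpa1, with a difference of -0.65. The single named member of the G protein list was PRN, a pirin that binds GPA1, which read 241.9 and 306.1 after ABA and 104.7 and 102.7 in the control pair. Its difference was -0.34 after ABA and 0.03 without it. In the list of ABA synthesis and catabolism, UGT71B1 read 54.9 and 68.8, and the other 3 members, among them the ABA glucosyltransferase UGT71B6, were below the floor on both ABA arrays. SAG29, a sugar transporter gene that rises with senescence and osmotic stress, read 951.3 and 1124.9 after ABA and 5.1 and 6.7 in the control pair.

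The same counts were taken among transcripts sorted by their ABA response averaged over both genotypes, which uses the same ABA arrays as the comparison, so the sets are not independent of it. Of the 1123 probe sets that were at least 2-fold brighter with ABA, 12 were higher and 25 lower in gpa1 after ABA, and 18 were higher and 11 lower in the control pair. Of the 877 that were at least 2-fold dimmer with ABA, 11 were higher and 16 lower after ABA, and 9 and 13 in the control pair. The 20746 with a smaller average change held 88 higher and 136 lower after ABA and 88 and 87 in the control pair, and they include probe sets below the floor on every array, which have no difference. The share at least 2-fold apart after ABA was 3.29% in the raised set, 3.08% in the lowered set and 1.08% in the rest. Among all probe sets it was 1.27%. The median difference after ABA was -0.04 in the raised set and 0 in the lowered set.

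Some of these ABA-raised genes were at least 2-fold apart. AT5G39520 read 162.4 in gpa1 and 502.5 in WS after ABA and 19.4 and 27.0 in the control pair, and was 3.09-fold lower in gpa1 after ABA. ZW9, named after its value was seen, read 751.7 and 1636.8 after ABA and 118.5 and 346.7 in the control pair, 2.18-fold and 2.93-fold lower in gpa1. In the other direction, AT5G28520, also named after its value was seen, read 786.3 in gpa1 and 360.5 in WS after ABA and 3.6 and 6.6 in the control pair. AT5G45690, named after its value was seen, read 242.6 and 110.1 after ABA and was below the floor without it. For both, signal appeared with ABA on either genotype and was higher in gpa1 by 1.13 and 1.14 on the log2 scale.

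The highest difference towards gpa1 belonged to AT5G43770. It read 264.3 in gpa1 and 23.7 in WS after ABA and 16.4 and 3.3 in the control pair. The gpa1 ABA array alone was bright, and the difference was 11.2-fold. AT5G24210 read 128.3 and 24.9 after ABA and 90.3 and 49.5 in the control pair. It was 5.15-fold higher in gpa1 after ABA and 1.82-fold without it. AT5G45500 read 184.2 and 55.3 after ABA and 301.6 and 71.0 in the control pair, 3.33-fold and 4.25-fold higher in gpa1.

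A run of neighbouring genes on chromosome 5 was higher in gpa1. AT5G37990 read 794.1 in gpa1 and 132.2 in WS after ABA and 491.9 and 221.1 in the control pair, 6.01-fold and 2.22-fold higher. AT5G38020 read 619.6 and 110.4 after ABA and 464.1 and 128.6 in the control pair, 5.61-fold and 3.61-fold higher. AT5G38030 read 161.3 and 62.3 after ABA and 139.6 and 52.5 in the control pair. AT5G37980 read 44.7 in gpa1 and was below the floor in WS, at least 2.33-fold higher. All 4 were at least 2-fold higher in gpa1 in the control pair too. In a window of 13 genes in chromosomal order around AT5G38010, 8 had a probe set. These 4 were at least 2-fold higher, with none lower, beside 0.481% higher among all probe sets with 1 gene. The other 4 had differences from 0 to 0.40. The window was placed around the run with its values known, so nothing is read from that count. Whether the probe sets of these neighbours bind each other's transcripts was not tested.

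Further genes were higher in gpa1. AT5G23830 read 165.0 and 66.9 after ABA and 230.9 and 73.7 in the control pair, and AT2G16005 read 246.4 and 89.0 after ABA and 196.1 and 99.1 in the control pair. AT5G20700 was the brightest of the 15 highest genes, with 1109.1 in gpa1 and 439.6 in WS after ABA and 590.7 and 319.3 in the control pair. AT2G21530, AT1G04000, AT5G55650, AT3G42140, AT1G57590 and AT2G44300 had differences from 1.27 to 1.54 after ABA and from -0.50 to 0.44 without it. MSRB5, a methionine sulfoxide reductase named after its value was seen, read 510.0 and 233.4 after ABA and 1026.4 and 488.1 in the control pair, a difference of 1.13 after ABA and 1.07 without it.

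Among the lower genes, AT1G23960 read 2.4 in gpa1 and 94.7 in WS after ABA and 3.0 and 68.6 in the control pair, at least 4.93-fold lower after ABA. AT2G44200 and AT5G51620 were also below the floor in gpa1 after ABA, at least 4.17-fold and at least 3.73-fold lower. AT5G43180, AT2G44370, AT1G73490, AT5G19240 and 2A6 were 2.87-fold to 3.58-fold lower after ABA, with differences from -1.03 to -2.39 on the log2 scale without it. A second probe set of 2A6, an oxygenase-like gene, had a difference of -0.58. AT2G25730 read 22.5 and 68.6 after ABA but 74.5 and 61.9 in the control pair.

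Among expansins and pectin enzymes, lists of cell wall proteins, 1 member was at least 2-fold higher in gpa1 and 1 lower. The background was 0.481% higher and 0.688% lower, and nothing is read from counts this small. The expansin EXPA8, a wall-loosening protein, read 62.4 in gpa1 and 3.7 in WS after ABA and 642.3 and 567.4 in the control pair. Both genotypes had far less signal with ABA, and in WS it lay below the floor, so EXPA8 was at least 3.25-fold higher in gpa1. Of the 19 probe sets of expansins, 1 was at least 2-fold higher and none lower, 10 differences were above 0 and 5 below, and the median was 0.14 after ABA (0 with the floor at 38.4) and -0.01 without it. EXPA7 and EXPA18, expansins of root hairs, had differences of 0.73 and 0.43 after ABA but of -0.74 and -0.81 without it. The spike-in difference of 0.75 and -0.60 given above had the same signs in each pair, and its part in these values was not tested.

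ATPMEPCRB, a pectin methylesterase that alters wall stiffness, read 64.4 in gpa1 and 211.0 in WS after ABA and 25.9 and 49.4 in the control pair. It was 3.28-fold lower after ABA and 1.91-fold lower without it. It was the single member at least 2-fold apart among the 7 pectin probe sets, whose median was 0. None of the 50 probe sets of the list of xyloglucan, cellulose and arabinogalactan genes was 2-fold apart, beside 1.17% of all probe sets with 1 gene. At that share a list of this size can hold none, and 40 of the 50 lay above the floor on an ABA array. The differences ran from -0.74 for TBL32 to 0.59 for TBL28, both of a family of polysaccharide acetyltransferases.

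Each list of enzymes of oxidation, conjugation and redox held 1 member at least 2-fold apart, beside a background of 0.481% higher and 0.688% lower. Nothing is read about these families from counts this small. Above the floor on an ABA array were 12 of 24 cytochrome P450 probe sets and 50 of 73 of glycosyltransferases and beta-glucosidases. For peroxidases and thiol proteins these were 8 of 9 and 23 of 27. The rest could show no difference. Of 24 cytochrome P450 probe sets, 1 was lower and none higher: CYP71B26 read 40.9 and 90.1 after ABA and 21.6 and 29.2 in the control pair. Of 73 probe sets of glycosyltransferases and beta-glucosidases, 1 was higher and none lower. This was BGLU28, a beta-glucosidase linked to glucosinolate turnover in sulfur starvation, at 68.1 and 29.2 after ABA and 103.1 and 53.6 in the control pair. BGLU46, which acts on lignin precursors, was just inside 2-fold at -0.96. The class III peroxidase gene AT2G41480 read 176.4 and 80.7 and was 2.19-fold higher, and the other 8 peroxidase probe sets had differences from -0.60 to 0.65. The glutaredoxin GRXC1 read 71.7 and 148.7, 2.07-fold lower, 1 of 27 probe sets of thiol proteins, with none higher.

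Of 7 probe sets of heat shock proteins and chaperones, which help other proteins fold, 2 were at least 2-fold lower in gpa1 and none higher, beside a background of 0.688% lower. The differences of 6 were below 0 and none was above 0, and the list's median was -0.45 after ABA and 0 without it. ATHSP22.0, a small heat shock protein of the endoplasmic reticulum, read 57.7 in gpa1 and 126.9 in WS after ABA and 20.6 and 30.7 in the control pair. AT5G48570, which is the heat-induced immunophilin ROF2, read 33.0 and 85.9 after ABA and 29.3 and 26.9 in the control pair. Hsp70-2 had a difference of -0.45, and the 3 chloroplast chaperonins Cpn60beta2, Cpn60beta3 and Cpn60beta4 had -0.09, -0.47 and -0.25.

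Protein turnover, the cytoskeleton and signalling each held 1 or 2 lower genes and none higher, beside a background of 0.688% lower and 0.481% higher. No direction is read from counts this small. Among the genes below, scpl42, NET1B, TUA1, CML43 and GH3.3 were each inside 2-fold under another floor or scaling. Of 94 probe sets of ubiquitin ligases, F-box proteins and proteases, the subtilase SBT3.12 and the serine carboxypeptidase-like gene scpl42 were lower. SBT3.12 read 27.7 and 93.3 after ABA and 32.4 and 93.2 in the control pair, nearly the same in both pairs. Of 37 cytoskeleton probe sets, NET1B, which binds actin, and the alpha-tubulin TUA1 were lower, by 2.14-fold and 2.03-fold, and the other members ranged from -0.82 for NET1D to 0.70 for IQD19. CML43, a calmodulin-like calcium sensor, was at least 2.06-fold lower. GH3.3, which conjugates auxin to amino acids, read 182.8 and 367.7 after ABA and 53.7 and 79.8 in the control pair, 2.01-fold lower, and was the single member past 2-fold of 19 auxin probe sets.

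**Figure D3:**
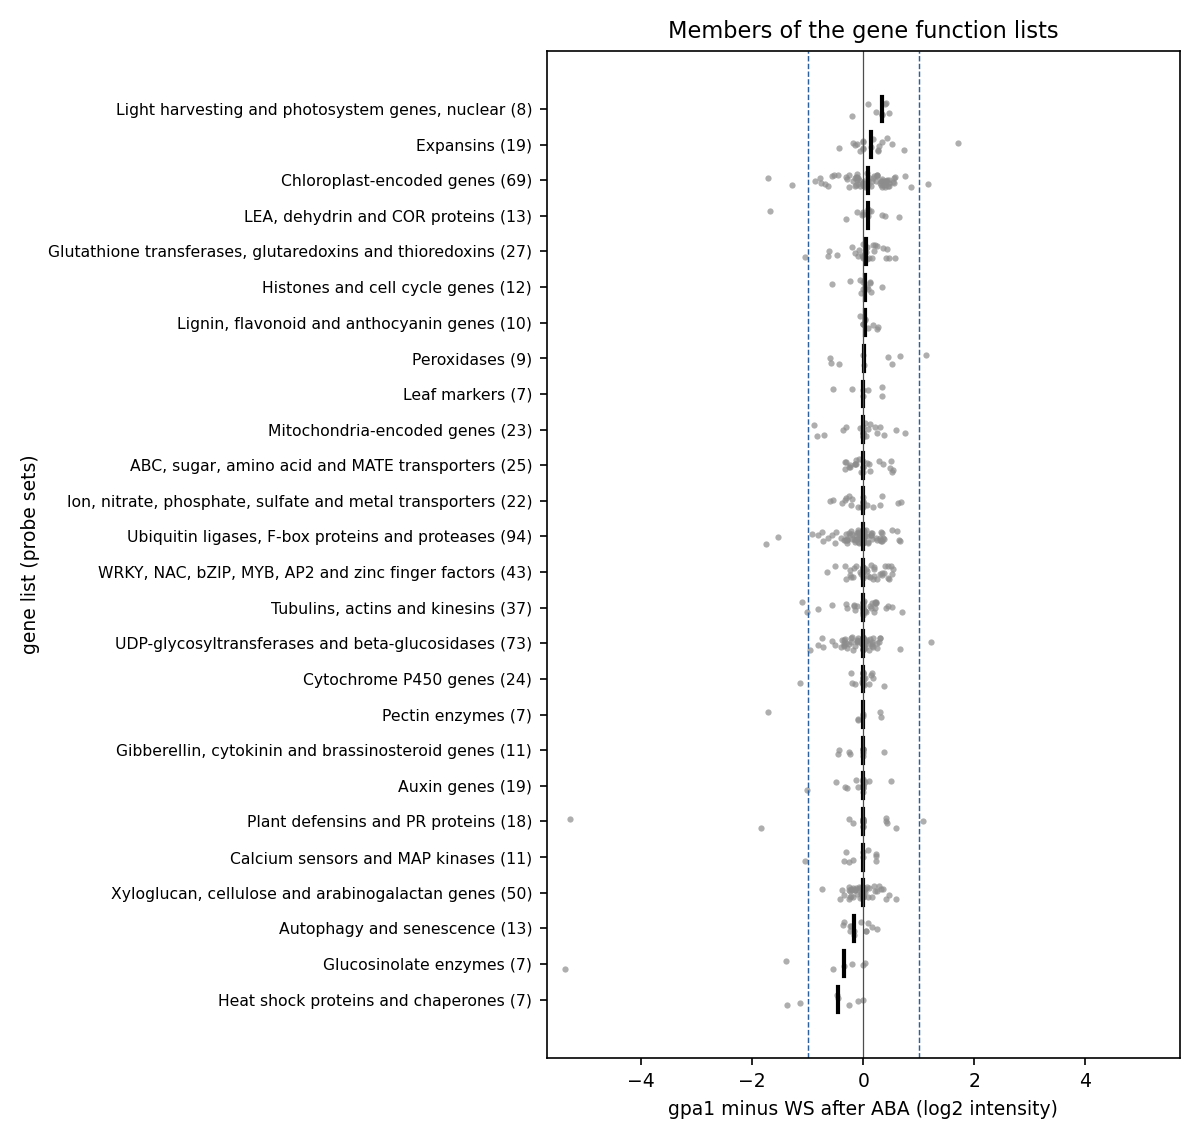
Difference gpa1 minus WS after ABA on the log2 scale for every probe set (grey point) of the gene lists with at least 7 probe sets, with the number of probe sets in brackets; black bars are list medians and dashed lines 2-fold differences. List medians lie between -0.45 for the heat shock list and 0.34 for the nuclear photosynthesis list (0.01 with quantile normalization), and the points past the dashed lines are few in each list.

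In the remaining regulators and carriers no member was 2-fold apart, beside 1.17% of all probe sets with 1 gene. At that share short lists can hold none, so this is not read as a result about these families. None of the 43 probe sets of transcription factors of the WRKY, NAC, bZIP, MYB, AP2 and zinc finger families passed 2-fold, with differences from -0.65 to 0.54. The same held for 22 probe sets of mineral transporters (from -0.60 to 0.68), 25 of transporters of organic solutes (from -0.33 to 0.53), 12 of histones and cell cycle genes (from -0.56 to 0.34) and 13 of autophagy and senescence (from -0.36 to 0.24). Above the floor on an ABA array were 33 of 43, 16 of 22, 21 of 25, 10 of 12 and 13 of 13. The rest could show no difference. MYC3, a factor of jasmonate signalling, had the lowest value of the jasmonate list with -0.78, and its relative MYC4 the highest with 0.51. The gibberellin receptors GID1A and GID1B had -0.45 and -0.43. In all, the 39 lists with a member held 668 probe sets, of which 5 were higher and 18 lower, beside a background of 0.481% and 0.688% among probe sets with 1 gene. The lists had been chosen with earlier results of these data known, so nothing is read from that count.

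Photosynthesis genes of the nucleus were slightly brighter in gpa1 after ABA under the deposited scaling, and level with quantile normalization. Of 8 probe sets, 7 differences were above 0 and 1 was below, and the median was 0.34 after ABA and -0.18 without it. PSBW, a small subunit of photosystem II, read 3941.7 in gpa1 and 2857.1 in WS, and PSAN, a subunit of photosystem I, 3234.3 and 2461.6. None was 2-fold apart. With quantile normalization 4 of the 8 differences were above 0 and the median was 0.01 after ABA and 0.08 without it. The spike-in and 25S ribosomal RNA readings had the same signs in each pair as the values under the deposited scaling, and their part in these was not tested.

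Of 69 chloroplast-encoded probe sets, 1 was at least 2-fold higher and 2 were lower, beside a background of 0.481% higher and 0.688% lower. The list was chosen with earlier results of these data known, so nothing is read from that count. The median was 0.08 after ABA and -0.20 without it, or -0.03 and -0.08 with quantile normalization. psaA, a core protein of photosystem I, read 1858.0 in gpa1 and 825.6 in WS after ABA and 1172.6 and 1576.0 in the control pair. petN, a small subunit of the cytochrome b6f complex, read 117.1 and 285.1 after ABA and 151.0 and 132.9 in the control pair. ndhF, a subunit of the NDH complex of cyclic electron flow, read 24.9 and 81.4 after ABA and 54.0 and 22.1 in the control pair. It was 3.27-fold lower in gpa1 after ABA and 2.44-fold higher without it. The differences of psaA, 1.17 after ABA and -0.43 without it, had the signs of the spike-in and 25S ribosomal RNA readings. Those of petN and ndhF had the opposite signs. The part of these readings in the values was not tested. No mitochondria-encoded probe set of 23 was 2-fold apart, beside 1.17% of all probe sets with 1 gene, and 16 of the 23 lay above the floor on an ABA array. At that share a short list can hold none. The probe sets of 1 gene, nad1, ranged from -0.89 to 0.74.

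The control pair showed part of the same differences without the hormone, on arrays that the ABA pair does not share. There, 115 probe sets were at least 2-fold higher in gpa1 (0.506%) and 111 lower (0.488%). Of the 111 probe sets higher after ABA, 23 were also at least 2-fold higher without it, 20.7% of the ABA calls and 20% of the control calls. Of the 177 lower, 39 were also lower without ABA, 22.0% of the ABA calls and 35.1% of the control calls, and 1, ndhF, was at least 2-fold higher there. The sign was the same in both pairs for 73 of the 111 (65.8%) and for 116 of the 177 (65.5%). Of the 18 probe sets at least 4-fold lower after ABA, 7 were also at least 4-fold lower without it, while none of the 6 at least 4-fold higher was. Median differences of the called probe sets were 1.14 after ABA and 0.27 without it for the higher ones, and -1.20 and -0.38 for the lower ones. Being chosen by their value after ABA itself makes that value the larger. Across all 22746 probe sets the correlation of the 2 differences was 0.219, a description with no test.

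**Figure D4:**
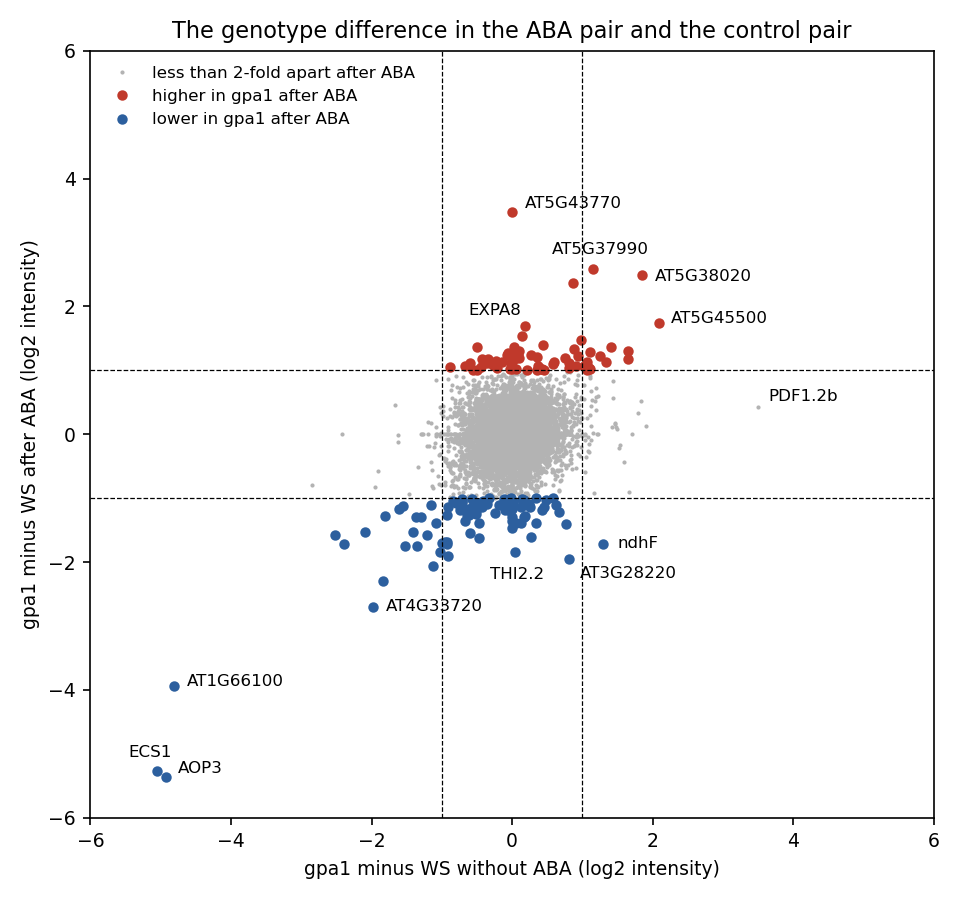
Difference gpa1 minus WS after ABA (vertical) against the same difference without ABA (horizontal), on the log2 scale, for the 13513 probe sets with 1 gene; dashed lines mark 2-fold. AOP3, ECS1 and AT1G66100 lie at the lower left with large negative values in both pairs, AT5G43770, EXPA8 and THI2.2 lie near 0 on the horizontal axis, and PDF1.2b lies far to the right near 0 on the vertical axis.

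Some genes differed in the ABA pair and not in the control pair, or the reverse. Among genes above the floor on all 4 arrays, PDF1.2b had the most negative change of the difference, -3.08. It read 300.0 in gpa1 and 26.5 in WS without ABA but 40.3 and 30.1 with it. Whether the PDF1.2b probe set also binds other transcripts was not tested. AT2G20670 read 160.0 and 42.5 without ABA and 278.5 and 253.5 with it, a change of -1.78. AT1G14330 and AT2G25730 had changes of -2.16 and -1.88. Towards gpa1, psbN, AT1G74330, AT2G27790, AT2G29860 and AT5G55650 had changes from 1.74 to 1.94, and for each the gpa1 array was brighter after ABA and the WS array was brighter without it. The spike-in mean and the 25S ribosomal RNA had this same order, and their part was not tested. psbN, which is read from the chloroplast genome, had 180.0 and 99.7 after ABA and 100.7 and 213.1 without it.

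Chromosome 5 held 26 of the 65 genes' probe sets that were higher in gpa1 after ABA, 40% of them, and 23.4% of the probe sets that were above the floor on an ABA array. It held 26 of the 93 lower ones, 28.0%. The other chromosomes held 5 to 12 higher and 10 to 24 lower probe sets. Of the 26 higher on chromosome 5, 9 were also at least 2-fold higher without ABA, against 0 to 4 on each of the other chromosomes. The run around AT5G38010 supplied 4 of these 9. The single adjacent pair of lower genes was scpl42 and AT5G42250, also on chromosome 5, both below the floor in gpa1. Around AT3G26300, the locus in the labels, 13 of 21 genes had a probe set, and 1 was 2-fold apart, the adjacent CYP71B26 at -1.14. Around AT2G26300, the GPA1 locus, 9 of 21 had one, and 1 was 2-fold apart, AT2G26210 at 1.05, which had -0.44 without ABA. Distances were counted in genes along the chromosome.

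Brightness set how far a difference can be read. When the probe sets above the floor on an ABA array were divided into 5 equal groups by mean intensity, the robust standard deviation of the difference was 0.376 in the dimmest and 0.250 in the brightest. The share at least 2-fold apart was 1.93%, 2.84%, 1.42%, 1.63% and 0.876% from dim to bright. The correlation of the difference with that of the control pair was 0.085 in the dimmest group and 0.355 in the brightest. Of the 64 probe sets past 2-fold in the dimmest group, 13 were past it the same way without ABA, and of the 29 in the brightest, 11 were. Bright genes such as ECS1, AT5G37990, AT5G38020 and ZW9 thus lie where the spread was narrow, and genes near the floor such as NET1B and CML43 where it was wide. With the floor raised to 38.4, EXPA8, THI2.2, BGLU28, NET1B, CML43, scpl42, TUA1, 2A6, AT5G37980, AT5G51620 and AT2G25730 were less than 2-fold apart. GH3.3 and TUA1 were so with median centring and with quantile normalization, and GRXC1 with quantile normalization.

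**Figure D5:**
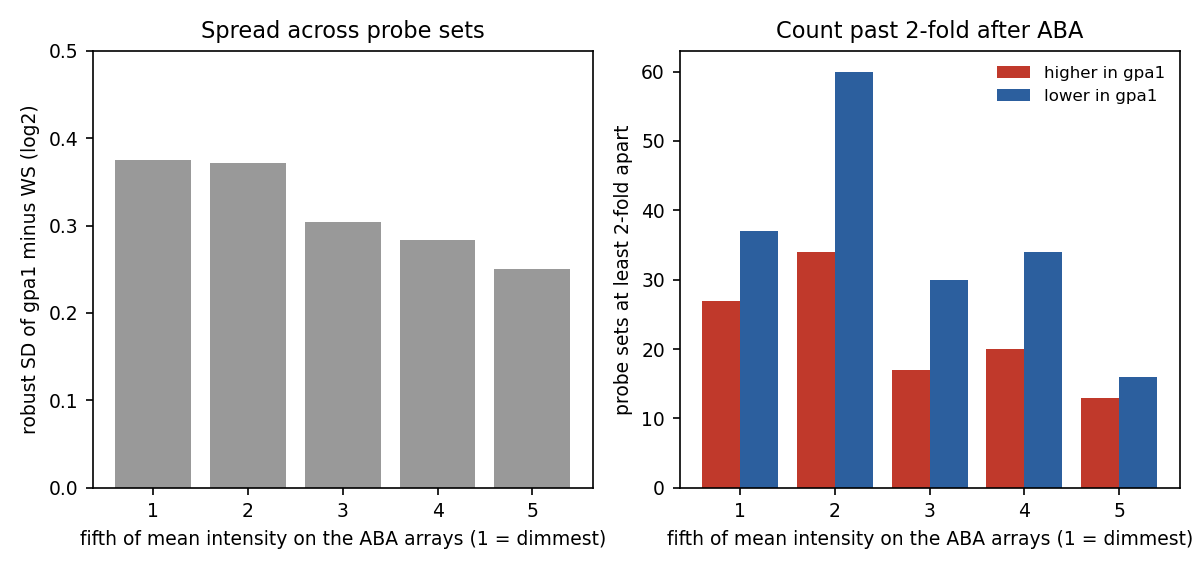
Left, robust standard deviation of the difference gpa1 minus WS after ABA (log2) in 5 equal groups of probe sets by mean intensity on the ABA arrays, from dimmest (1) to brightest (5). Right, the number of probe sets at least 2-fold higher or lower in gpa1 in each group; the spread is 0.376 in the dimmest and 0.250 in the brightest group, and the brightest holds 13 higher and 16 lower probe sets.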

How the data were processed

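Linear intensities of 22810 probe sets on 4 Affymetrix ATH1 arrays were used as the authors deposited them. The sources used here do not give the program that summarised the probes. In the deposited values the 2%-trimmed mean of every array was 100, so they had been scaled before deposit. Per the labels' protocols, cRNA labelled with biotin was made from total RNA through oligo(dT)-primed cDNA. Precision is limited by the number of arrays.

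The 64 control probe sets were set aside, leaving 22746. The 30th percentile over all arrays was the floor to which lower values were raised, log2 was taken, and gpa1 minus WS was computed in each pair (Python 3.11.15, numpy 2.4.6, pandas 2.3.3). No test was made, since each group had 1 array. The code that counts 2-fold differences was checked on simulated arrays with known differences. The robust standard deviation is the median absolute deviation scaled to a normal distribution. Probe sets were named through the platform annotation, with symbols updated through RefSeq (TAIR10.1): 13513 had 1 gene, 503 had several and 8730 were not listed, and 13436 of the 13513 matched RefSeq. The annotation was used for names and gene order only. No sequence is shown.

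The comparison, the 40 gene lists and the choice of genes were made with earlier results of these data known, and text matches that put wrong genes into lists were corrected by their annotation after values had been seen, and the group of probe sets over 2000 was also formed then. Genes were named by a rule: CYP71B34 and GPA1, the 15 highest and 15 lowest above the floor on both ABA arrays, the 5 largest bounds in each direction, up to 4 members of each list with the largest absolute difference, the 5 largest changes of the difference in each direction above the floor on all arrays, and further probe sets of these. List members beyond the 4 and the neighbours in a window were also named, after their values had been seen, as were the genes marked so in the text. Alternatives were a floor of 9.6 and of 38.4, median centring, quantile normalization, a filter at the 40th percentile of mean intensity, log2 of intensity plus 16 with no floor, other fold thresholds and 1 value for each gene.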

Additional observations from a re-analysis of the deposited data

Results flagged for a closer look

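ndhF, the chloroplast-encoded NDH subunit, was the probe set that was at least 2-fold apart in opposite directions in the pairs. Its difference gpa1 minus WS was -1.71 on the log2 scale after ABA and 1.29 without it. The intensities were 24.9 and 81.4 after ABA and 54.0 and 22.1 in the control pair, so it was dim on 2 of the 4 arrays, close to the floor of 19.2. With 1 array in each group the difference between the pairs was not tested.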

How the results depend on the processing

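No paired analysis was possible because each group had 1 array, and no array could be left out for the same reason. No called difference among the named probe sets turned its sign under another floor, scaling, filter or pseudocount. The counts followed the floor. With the floor at 9.6 314 probe sets were higher and 450 lower in gpa1 after ABA, 36 and 73 were so in both pairs, and 11 list members were higher. With the floor at 38.4 the counts were 53 and 94, 13 and 21, and 3. With log2 of intensity plus 16 there were 73 higher, 13 higher in both pairs, and 3 list members higher and 11 lower. A threshold of 1.5-fold gave 719 higher and 934 lower, and 3-fold gave 13 and 39. With 1 value for each gene, which leaves out unnamed probe sets, there were 64 and 92. The filter on dim probe sets raised the correlation of the pairs to 0.27. Median centring and quantile normalization moved no count by over 1.5 times, but quantile normalization took the median of the nuclear photosynthesis list from 0.34 to 0.01. Of 58 named probe sets past 2-fold, 40 stayed so with the floor at 38.4, 56 with median centring (not GH3.3 and TUA1), 55 with quantile normalization (not GH3.3, GRXC1 and TUA1) and 42 with the pseudocount. EXPA8, THI2.2, BGLU28, NET1B, CML43, scpl42, TUA1, 2A6 and 10 loci without a symbol were no longer 2-fold apart with the floor at 38.4. With the pseudocount those less than 2-fold apart included ATHSP22.0, CYP71B26, PDF2.1, AT2G41480, GH3.3, GRXC1, NET1B, CML43, TUA1 and BGLU28.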
